A study of Mus musculus with 12 samples.

Results

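The enzymes that break down amino acids were examined in mouse liver RNA-Seq as 49 genes named by symbol, of 24537 genes in the table. They were taken for what their products do and not for their levels, though with earlier results of these data known. They were grouped by the amino acid they degrade. The libraries came from 12 male C57Bl/6J mice, 6 weeks old at the start and housed singly. Con mice ate ad libitum, and CR mice received 30% fewer calories than the Con mice ate, as a fortified form of the same diet given once daily at noon. Each diet was sampled at day 25 and at day 30 with 3 mice per group (Con7 to Con9 and CR7 to CR9 at day 25, Con10 to Con12 and CR10 to CR12 at day 30). Mice were labeled with heavy water in the days before they were killed. The hour of killing is not given in the sources used here, so the amount of food, the form of the diet and the time since the last meal cannot be told apart.

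The liver is the main site where amino acids beyond the needs of protein synthesis are degraded. In many paths an aminotransferase, dehydratase or dehydrogenase first removes the amino group, while others, such as that of tryptophan, open with a different step. The nitrogen is largely made into urea. The carbon skeleton is cut down in the cytosol or mitochondria to pyruvate, acetyl-CoA or an intermediate of the citric acid cycle. Several of these enzymes, among them tyrosine aminotransferase and serine dehydratase, are textbook cases of liver genes that respond to fasting, glucocorticoids and glucagon, while the branched-chain amino acids are largely transaminated outside the liver.

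All 49 members passed the filter on low values (at least 1 FPKM in at least 3 libraries), as did 10593 genes in all. FPKM are reads on the exons of a gene after scaling for exon length and library depth. Averaged over the 12 mice, they ran from 3.76 FPKM for Bckdk to 1703 FPKM for Hpd, with a median of 113 FPKM against 6.26 FPKM over all genes tested. The depth was 15748720 to 23345534 reads per library, and no member had fewer than 149 reads in any library. Con11 stood apart among the members: it had the lowest value of the 3 Con mice of day 30 in 39 of 49 members (79.6%, against 35.5% of all genes tested), and Con12 had the highest in 34. Con7 was the lowest of the Con mice of day 25 in 30 of 49 (61.2%, against 42.3% of all genes).

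The tissue label was checked against cell type markers. Hepatocyte markers, a list of 7 genes that includes the member Tat, summed to 39874 to 68247 FPKM and were all detected. Their sum was higher under CR without overlap, at 48270 to 55227 FPKM in Con and 56800 to 59815 FPKM in CR mice at day 25 and at 39874 to 49318 and 58681 to 68247 FPKM at day 30, and 2 of 7 passed in limma at day 25 and 3 of 7 at day 30. Albumin (Alb) made up most of this sum. Without Alb, an alternative chosen after seeing the data, the groups overlapped, at 16610 to 18697 FPKM in Con and 18543 to 22356 FPKM in CR mice at day 25 and at 14374 to 16308 and 15669 to 17634 FPKM at day 30. Tat and Cyp2e1 passed at day 25 and Alb, Tat and Cps1 at day 30. The log2 FC of Apoa1 (-0.24 and -0.23) and Serpina1a (-0.14 and -0.17) were below 0 at both days, and neither passed. The other genes of the list were above 0 at both days. Their log2 FC were 0.22 and 0.64 for Alb and 0.19 and 0.12 for Ttr. Cyp2e1 had 0.47 and 0.34, Cps1 0.087 and 0.48, and Tat 1.34 and 1.69. The sum of the stellate cell markers also lay higher in CR mice at day 30 (61.6 to 75.8 FPKM, against 44.3 to 54.0 FPKM in Con mice) and at day 25 (59.6 to 62.1 against 48.9 to 56.5 FPKM). Dcn made up most of it, and at day 25 Reln passed but Dcn did not (log2 FC 0.17). The sum of the Kupffer cell and macrophage markers was lower at day 25 (15.6 to 19.97 against 21.2 to 38.7 FPKM). Clec4f and Vsig4 passed there as lower, and Adgre1 and Cd68 were below 0 without passing. Marco went the other way, with a log2 FC of 0.37 at day 25 without passing and 0.79 at day 30, where it passed. The sum of the sinusoidal endothelial markers was higher at day 30 (38.0 to 43.1 against 29.0 to 31.9 FPKM), with Clec4g as its largest part. Stab2 and Clec4g passed there, Pecam1 (log2 FC 0.32) and Kdr (0.35) did not, and Lyve1 had 0.0032. At day 25 Stab2 alone of them passed. The sum of the lymphocyte markers was lower at day 25 (0.165 to 0.338 against 0.552 to 0.622 FPKM) and day 30 (0.187 to 0.561 against 0.819 to 1.07 FPKM). None of these 5 genes passed the filter on low values, so none was tested. Cholangiocyte markers summed to 7.57 to 17.8 FPKM and erythroid markers, mostly globins, to 193 to 1107 FPKM. Alas2, the heme synthesis enzyme of erythroid cells, was lower under CR without overlap at day 25 (14.03 to 28.1 against 31.8 to 35.4 FPKM, log2 FC -0.69, adjusted p = 0.0667) and at day 30 (11.8 to 19.97 against 41.7 to 46.2 FPKM, log2 FC -1.49, adjusted p = 0.000974), while no globin passed. No marker of any list was at 0 in every library. Their part in the differences described here was not tested, and in whole liver a change in the share of a cell type and a change in RNA per cell cannot be told apart.

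**Figure D1:**
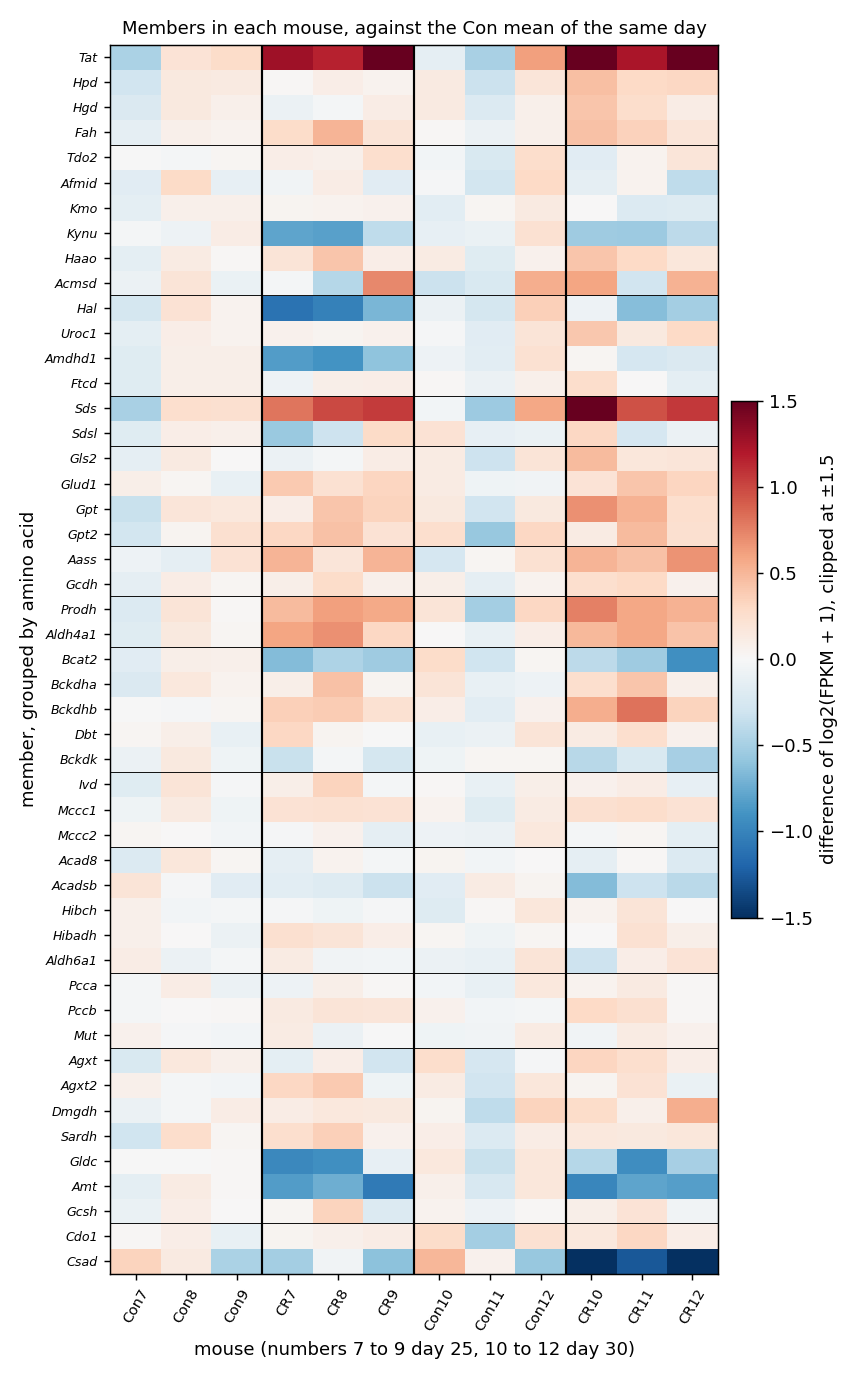
Each of the 49 members (rows, grouped by amino acid) in each of the 12 mice (columns), as the difference of log2(FPKM + 1) from the mean of the Con mice of the same day. Red is higher and blue is lower, clipped at ±1.5. Tat and Sds are red and Amt and Kynu blue in all 6 CR mice, and the column of Con11 is pale blue in most rows.

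The first question was how many of these enzymes differed between CR and Con mice at each day. Differences are log2 FC of FPKM + 1, CR against Con, from limma, with p-values adjusted over all 10593 genes and a threshold of 0.1. At day 25, 11 of 49 members passed, 5 higher and 6 lower under CR. Over all genes tested, 5.6% were higher and 9.34% lower. At day 30, 16 members passed, 9 higher and 7 lower, with 8.33% of all genes higher and 16.4% lower. With the libraries scaled by the median ratio the split was 10 higher and 5 lower at day 25 and 16 higher and 6 lower at day 30. Of all 10593 genes, that scaling gave 929 higher and 799 lower at day 25 and 1319 higher and 1238 lower at day 30. Without Con11, 12 members passed at day 30, 5 higher and 7 lower. The counts over all genes fell as well, from 882 higher and 1737 lower to 605 and 1265. Without Con7, CR7 or CR9 in turn 7 members passed at day 25. Over all genes, 593 higher and 989 lower then became 319 and 681, 372 and 632, and 369 and 524.

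The members did not all move one way. Their median log2 FC was 0.057 at day 25 and 0.14 at day 30, against -0.039 and -0.068 over all genes tested, with 32 and 34 of 49 above 0. Without Con11 the median at day 30 was 0.056, with 28 of 49 above 0, and without Con8 that at day 25 was 0.12. Median-ratio scaling gave medians of 0.12 and 0.22, against 0.013 and -0.0021 over all genes. Most differences were small, with 39 members within 0.5 of 0 on the log2 scale at day 25 and 40 at day 30. A change of at least 2-fold (a log2 FC of 1) past the threshold was seen for 1 member at day 25, Tat, and for 3 members at day 30, Tat, Sds and Csad, where 1.48% and 2.21% of all genes tested did so. CR and Con mice did not overlap in 17 members at day 25 (34.7%, against 28.2% of all genes) and in 20 at day 30 (40.8%, against 36.4%).

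**Figure D2:**
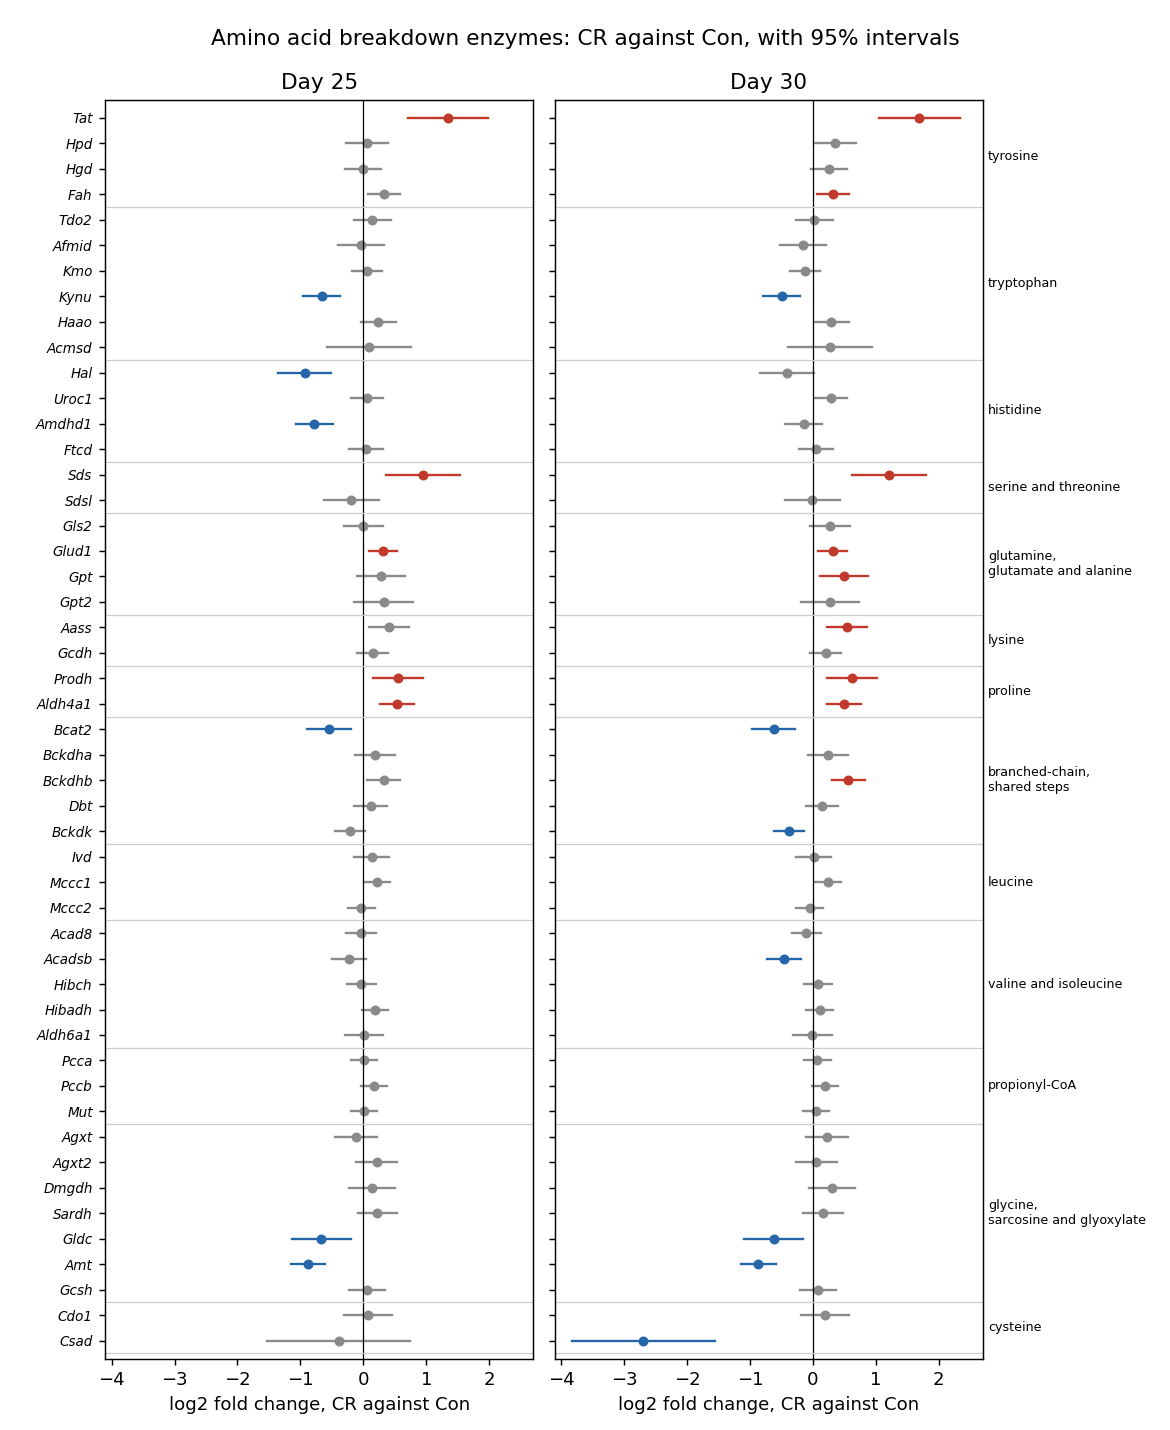
Log2 FC of CR against Con (horizontal axis) for the 49 members at day 25 (left) and day 30 (right), grouped by the amino acid they break down. Points are estimates from limma, lines are 95% intervals, and red and blue mark members higher and lower at an adjusted p under 0.1. Tat, Sds, Prodh, Aldh4a1 and Glud1 are red and Amt, Gldc, Kynu and Bcat2 blue at both days.

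Tyrosine breakdown began with the largest rise of the 49. Tat (chr8:109990436-109999804, plus strand) encodes tyrosine aminotransferase, which takes the amino group from tyrosine. Its FPKM at day 25, in order of mouse number here and in what follows, was 448, 716 and 749.6 in the Con mice and 1498, 1379.6 and 1904 in the CR mice. At day 30 it was 352, 275 and 593 in the Con mice and 1624, 902 and 1330.2 in the CR mice. At both days the lowest CR mouse exceeded the highest Con mouse, and the mean FPKM was 2.499 times that of Con mice at day 25 (log2 FC 1.34, 95% interval 0.71 to 1.98, adjusted p = 0.0149) and 3.16 times at day 30 (log2 FC 1.69, 95% interval 1.06 to 2.33, adjusted p = 0.00287). The differences further along the path were smaller. Fah (chr7:84585159-84605942, minus strand), fumarylacetoacetate hydrolase, which carries out the last step to fumarate and acetoacetate, had FPKM of 298, 345 and 339.6 in the Con mice and 396, 466 and 374 in the CR mice at day 25 and of 325, 304 and 339 in the Con mice and 439, 410.2 and 366 in the CR mice at day 30. Its groups did not overlap at either day, with a similar difference at day 25 (log2 FC 0.33, 95% interval 0.071 to 0.58, adjusted p = 0.106) and at day 30 (log2 FC 0.33, 95% interval 0.070 to 0.58, adjusted p = 0.0779). With the mouse numbers as a block, day 25 passed as well (adjusted p = 0.0803), while the call at day 30 was lost without Con10, Con11, Con12, CR10 or CR11 in turn (adjusted p 0.111 to 0.242) and with only the 6 libraries of the day fitted (adjusted p = 0.103). Hpd, 4-hydroxyphenylpyruvate dioxygenase and the member with the highest level, had a log2 FC of 0.057 at day 25 and 0.35 at day 30, and Hgd, homogentisate dioxygenase, of -0.0031 and 0.26, and neither passed.

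Sds (chr5:120476547-120483905, plus strand), serine dehydratase, turns serine into pyruvate and ammonia, and it was the other member to rise by 2-fold. At day 25 its FPKM was 141, 235 and 235 in the Con mice and 348, 394 and 411 in the CR mice, and at day 30 134, 94.2 and 206 in the Con mice and 422, 267 and 288 in the CR mice. Every CR mouse lay above every Con mouse of its day, and Con7 and Con11 were the lowest mice of their days. The increase passed at day 25 (log2 FC 0.95, 95% interval 0.35 to 1.54, adjusted p = 0.0492) and at day 30 (log2 FC 1.21, 95% interval 0.61 to 1.80, adjusted p = 0.0112). The call at day 25 was lost without Con7, CR8 or CR9 in turn (adjusted p 0.102 to 0.169), and that at day 30 was kept whichever mouse was left out. Sds overlaps Plbd2 on the other strand (mean FPKM 37.4), and whether the counting used strand is not stated. Sdsl, the serine dehydratase-like gene, lies 3783 bases from Sds on the opposite strand and was far lower, at 13.8 ± 1.52 FPKM (mean ± SD, n = 3) in Con and 12.3 ± 4.19 FPKM in CR mice of day 25. Its log2 FC was -0.19 (95% interval -0.63 to 0.25) at day 25 and -0.010 (95% interval -0.45 to 0.43) at day 30, and it did not pass at either day.

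Both enzymes of proline breakdown rose at both days. Prodh (chr16:18071726-18089190, minus strand), proline dehydrogenase of the inner mitochondrial membrane, had FPKM of 75.8, 100.0 and 88.2 in the Con mice and 122, 135 and 130.1 in the CR mice at day 25. At day 30 the values were 89.5, 54.5 and 96.8 in the Con mice and 133, 117 and 112 in the CR mice. All CR mice exceeded all Con mice, with similar differences at day 25 (log2 FC 0.55, 95% interval 0.15 to 0.95, adjusted p = 0.0822) and day 30 (log2 FC 0.62, 95% interval 0.22 to 1.02, adjusted p = 0.0381). The call was lost at day 25 without Con7, Con9, CR7, CR8, CR9 or CR11 in turn (adjusted p 0.101 to 0.233) and at day 30 without Con11 or CR10 in turn (adjusted p 0.101 to 0.134), and with quantile normalization at day 25 (adjusted p = 0.111). Con11, at 54.5 FPKM at day 30, was well below the other Con mice. Aldh4a1 (chr4:139622894-139649691, plus strand), the dehydrogenase that completes the path to glutamate, had values of 92.3, 116 and 107 in the Con mice and 159, 169 and 129.9 in the CR mice at day 25 and 117, 108 and 125 in the Con mice and 164, 174 and 157 in the CR mice at day 30. The groups were apart at both days (log2 FC 0.53, 95% interval 0.26 to 0.80, adjusted p = 0.0204 at day 25 and log2 FC 0.50, 95% interval 0.23 to 0.77, adjusted p = 0.0183 at day 30), whichever mouse was left out. The table lists a microRNA gene within Aldh4a1 on the same strand, Mir7020, at a mean of 0.238 FPKM.

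The glutamate and alanine enzymes held smaller rises. Glud1 (chr14:34310727-34345033, plus strand), glutamate dehydrogenase, releases ammonia from glutamate in mitochondria and takes up the product of most aminotransferases. Its FPKM was 240.4, 231 and 209 in the Con mice and 297, 265 and 284 in the CR mice at day 25 and 251, 220.3 and 221 in the Con mice and 265, 308 and 288 in the CR mice at day 30. The CR mice were all above the Con mice at both days, but the distance was small at day 25 (log2 FC 0.31, 95% interval 0.085 to 0.54, adjusted p = 0.0837) and at day 30 (log2 FC 0.32, 95% interval 0.088 to 0.54, adjusted p = 0.0583). These calls were lost at day 25 without Con7, Con8, Con9, CR7, CR9 or Con12 in turn (adjusted p 0.105 to 0.247) and at day 30 without Con11, Con12, CR11 or CR12 in turn (adjusted p 0.112 to 0.163), with quantile normalization at both days (adjusted p 0.344 and 0.158), with only the 6 libraries of the day fitted at both days (adjusted p 0.161 and 0.108), and with TPM at day 25 (adjusted p = 0.122). Gpt (chr15:76696726-76699675, plus strand), the cytosolic alanine aminotransferase, had values of 136, 195 and 193 in the Con mice and 185, 231 and 218 in the CR mice at day 25, where the groups overlapped (log2 FC 0.28, 95% interval -0.097 to 0.66, adjusted p = 0.345). At day 30 its values were 164, 121 and 165 in the Con mice and 240.0, 214 and 177 in the CR mice, with no overlap (log2 FC 0.49, 95% interval 0.11 to 0.87, adjusted p = 0.0766). This call was lost without Con11, CR10 or CR11 in turn (adjusted p 0.149 to 0.25). Gpt2, the mitochondrial alanine aminotransferase, had a log2 FC of 0.32 and 0.28, and Gls2, the liver glutaminase, of -0.0018 and 0.28 at day 25 and day 30, without passing.

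For lysine, Aass (chr6:23072173-23132986, minus strand), the enzyme with both opening activities of the mitochondrial path, had FPKM of 90.9, 87.6 and 112 in the Con mice and 137, 109 and 138 in the CR mice at day 25, with CR8 just below Con9. At day 30 its FPKM was 68.6, 83.5 and 95.96 in the Con mice and 117, 111 and 132 in the CR mice, and the groups were apart. The increase passed at day 30 (log2 FC 0.54, 95% interval 0.22 to 0.86, adjusted p = 0.0268) but not at day 25 (log2 FC 0.40, 95% interval 0.081 to 0.72, adjusted p = 0.112), where the fit with mouse numbers as a block gave an adjusted p of 0.0448. Without Con10, the lowest Con mouse, the adjusted p at day 30 was 0.101. Gcdh, glutaryl-CoA dehydrogenase further down the path, had a log2 FC of 0.15 at day 25 and 0.21 at day 30 and did not pass.

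**Figure D3:**
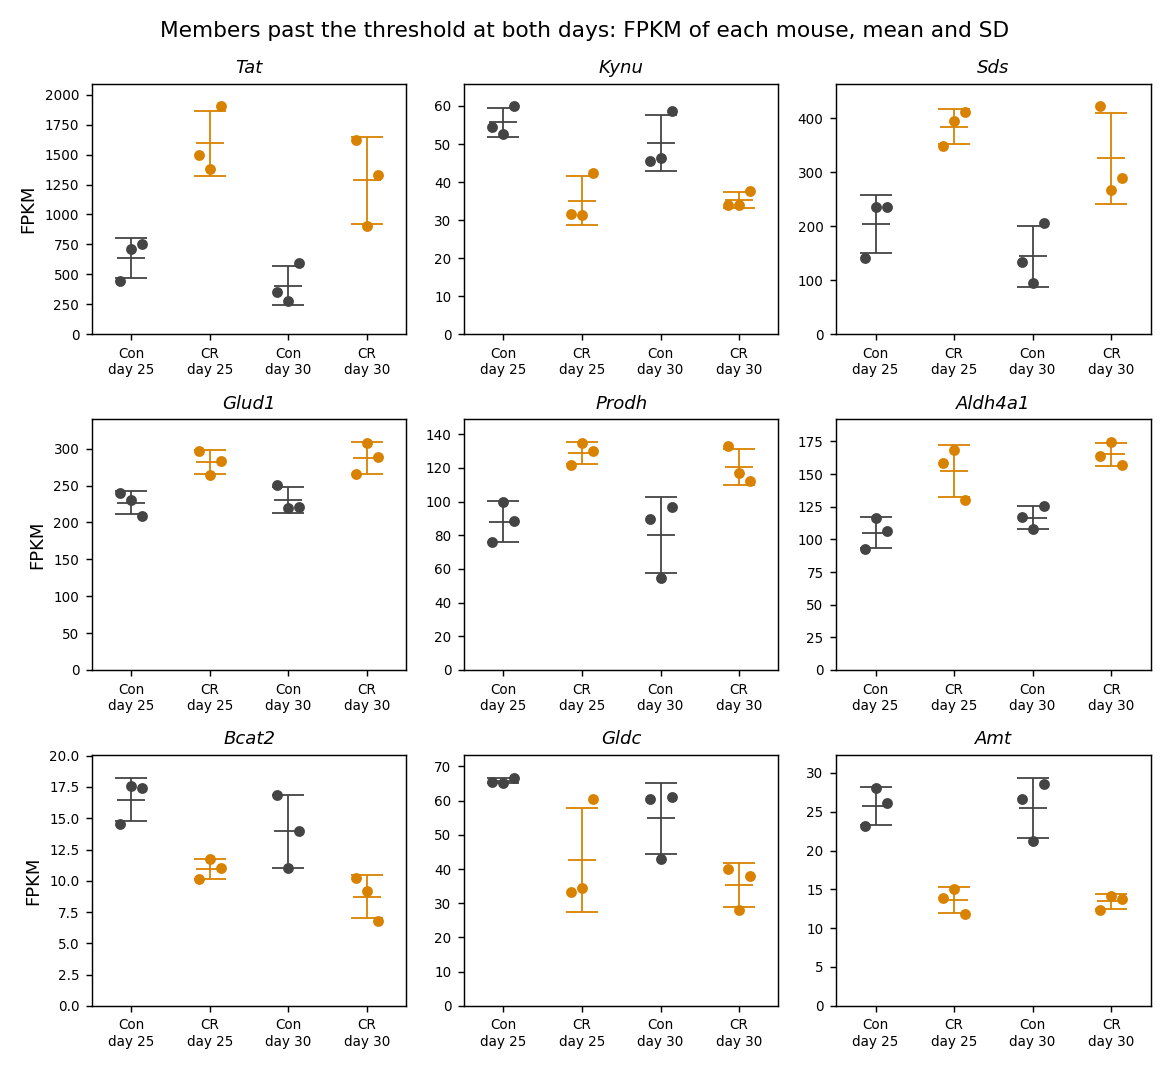
FPKM (vertical axes, each from 0) of the 9 members past the threshold at both days, for the 4 groups (horizontal axes). Points are mice, and the long and capped lines are the mean and SD of 3 mice. In all 9 panels the CR mice lie wholly above or wholly below the Con mice of the same day.

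Of the members lower at both days, Amt and Gldc belong to the glycine cleavage system, the mitochondrial complex that splits glycine into carbon dioxide, ammonia and a one-carbon unit. Amt (chr9:108296922-108301597, plus strand), its aminomethyltransferase, had FPKM of 23.2, 28.04 and 26.1 in the Con mice and 13.9, 15.1 and 11.8 in the CR mice at day 25. At day 30 its FPKM was 26.7, 21.2 and 28.6 in the Con mice and 12.4, 14.2 and 13.8 in the CR mice. The highest CR mouse stayed far below the lowest Con mouse, and the decrease was nearly equal at day 25 (log2 FC -0.88, 95% interval -1.16 to -0.60, adjusted p = 0.0020) and day 30 (log2 FC -0.87, 95% interval -1.14 to -0.59, adjusted p = 0.0011). Amt had the smallest adjusted p of all members at each day. Gldc (chr19:30098441-30175441, minus strand), the decarboxylase of the complex, had values of 65.5, 65.3 and 66.6 in the Con mice and 33.3, 34.3 and 60.3 in the CR mice at day 25, where CR9 was close to the Con mice. At day 30 its values were 60.5, 42.9 and 61.2 in the Con mice and 39.9, 27.9 and 38.1 in the CR mice. The groups did not overlap and the decrease passed at day 25 (log2 FC -0.67, 95% interval -1.14 to -0.20, adjusted p = 0.0741) and day 30 (log2 FC -0.62, 95% interval -1.09 to -0.15, adjusted p = 0.0687). It was lost at day 25 without Con7, Con8, Con9, CR7 or CR8 in turn (adjusted p 0.134 to 0.216), at day 30 without Con10, Con12 or CR11 in turn (adjusted p 0.175 to 0.199), with the median-ratio scaling at both days (adjusted p 0.117 and 0.130), and with quantile normalization at day 30 (adjusted p = 0.105). Gcsh, the carrier protein of the complex, had a log2 FC of 0.054 (95% interval -0.23 to 0.34) at day 25 and 0.080 (95% interval -0.21 to 0.37) at day 30. The 3 members of the complex thus included 2 that fell and 1 that did not pass. Dld, a further protein of the complex that is not a member, had -0.065 and -0.021 and did not pass.

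The other glycine, sarcosine and glyoxylate enzymes did not pass at either day. Their log2 FC at day 25 and day 30 were 0.22 and 0.16 for Sardh, sarcosine dehydrogenase, and 0.14 and 0.30 for Dmgdh, dimethylglycine dehydrogenase. Agxt, the peroxisomal aminotransferase that removes glyoxylate, had -0.11 and 0.22, and Agxt2, its mitochondrial relative, 0.21 and 0.055.

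In tryptophan breakdown, Kynu alone of 6 members passed at either day. Kynu (chr2:43555325-43680216, plus strand), kynureninase, cleaves alanine from the kynurenines midway along the path. FPKM were 54.6, 52.6 and 59.9 in the Con mice and 31.7, 31.2 and 42.5 in the CR mice at day 25 and 45.7, 46.4 and 58.6 in the Con mice and 34.05, 33.9 and 37.7 in the CR mice at day 30. Each CR mouse was below each Con mouse at day 25 (log2 FC -0.66, 95% interval -0.95 to -0.37, adjusted p = 0.0109) and at day 30 (log2 FC -0.49, 95% interval -0.78 to -0.20, adjusted p = 0.0273). The call at day 30 was lost without Con12 (adjusted p 0.102). Tdo2, tryptophan dioxygenase, which opens the ring at the start of the path, lay between 851 and 1233 FPKM in all mice, with a log2 FC of 0.14 (95% interval -0.15 to 0.44) at day 25 and 0.025 (95% interval -0.27 to 0.32) at day 30. Afmid, the formamidase after it, had -0.035 and -0.16, and Kmo, kynurenine monooxygenase, 0.056 and -0.13. Past Kynu, Haao, which makes the precursor of quinolinate, had 0.24 and 0.30, and Acmsd, which leads away from NAD synthesis, 0.090 and 0.27. Acmsd values were spread widely, from 4.13 to 10.4 FPKM in the CR mice of day 25.

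Histidine breakdown held 2 falls at day 25 that did not pass at day 30. Hal (chr10:93488768-93516761, plus strand), histidine ammonia-lyase and the first enzyme of the path, had FPKM of 169, 234 and 209 in the Con mice and 93.6, 100.0 and 125 in the CR mice at day 25, so that each CR mouse was below each Con mouse (log2 FC -0.93, 95% interval -1.36 to -0.51, adjusted p = 0.0121). At day 30 the values were 164, 144 and 223 in the Con mice and 165, 112 and 122 in the CR mice, and CR10 lay within the Con range (log2 FC -0.41, 95% interval -0.83 to 0.017, adjusted p = 0.174). Amdhd1 (chr10:93523338-93540033, minus strand), imidazolonepropionase, had values of 82.7, 100.1 and 99.5 in the Con mice and 52.03, 50.03 and 61.3 in the CR mice at day 25, again apart (log2 FC -0.78, 95% interval -1.07 to -0.49, adjusted p = 0.00473). At day 30 it had 78.7, 74.2 and 97.3 in the Con mice and 84.2, 69.7 and 71.1 in the CR mice, with the groups overlapping (log2 FC -0.15, 95% interval -0.44 to 0.14, adjusted p = 0.474). Both calls at day 25 were kept whichever mouse was left out. Hal and Amdhd1 are neighbours on opposite strands of chromosome 10, with 6576 bases between them. Uroc1, urocanate hydratase, whose step lies between theirs, had a log2 FC of 0.053 (95% interval -0.20 to 0.31) at day 25 and 0.28 (95% interval 0.029 to 0.54) at day 30, and Ftcd, which passes the formimino group to folate, of 0.037 (95% interval -0.23 to 0.31) and 0.043 (95% interval -0.23 to 0.31).

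The branched-chain amino acids leucine, isoleucine and valine share their opening steps. Bcat2 (chr7:45571279-45589710, plus strand), the mitochondrial branched-chain aminotransferase, was low in these livers and lower under CR. Its FPKM was 14.5, 17.6 and 17.4 in the Con mice and 10.1, 11.7 and 11.1 in the CR mice at day 25 and 16.8, 11.01 and 14.01 in the Con mice and 10.2, 9.16 and 6.82 in the CR mice at day 30. The groups were apart, by about the same amount at day 25 (log2 FC -0.55, 95% interval -0.89 to -0.20, adjusted p = 0.0492) and day 30 (log2 FC -0.62, 95% interval -0.96 to -0.28, adjusted p = 0.0202). The call at day 25 was lost without Con8, Con9, CR7 or CR9 in turn (adjusted p 0.115 to 0.14). Bcat2 overlaps the gene 0610005C13Rik on the other strand, whose mean of 131.8 FPKM is several times its own, and without strand the reads of the pair cannot be told apart.

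The next step, the branched-chain ketoacid dehydrogenase, held a rise in a subunit and a fall in its kinase. Bckdhb (chr9:83948781-84124240, plus strand), the beta chain of the decarboxylase, had FPKM of 42.05, 41.8 and 43.1 in the Con mice and 54.3, 55.3 and 49.8 in the CR mice at day 25 and of 41.00, 34.2 and 40.3 in the Con mice and 56.5, 67.9 and 48.7 in the CR mice at day 30. CR mice were above Con mice at both days, and day 30 passed (log2 FC 0.56, 95% interval 0.30 to 0.83, adjusted p = 0.00847) while day 25 did not (log2 FC 0.32, 95% interval 0.057 to 0.58, adjusted p = 0.122). Bckdk (chr7:127904073-127909664, plus strand), the kinase that switches the complex off, was the lowest of the 49, at 4.17, 5.09 and 4.24 in the Con mice and 3.34, 4.36 and 3.57 in the CR mice at day 25 and 3.76, 4.07 and 4.09 in the Con mice and 2.73, 3.25 and 2.52 in the CR mice at day 30. Its groups overlapped at day 25 (log2 FC -0.21, 95% interval -0.45 to 0.022, adjusted p = 0.247) and were apart at day 30, with CR lower (log2 FC -0.38, 95% interval -0.61 to -0.15, adjusted p = 0.0318). Bckdha, the alpha chain, had a log2 FC of 0.19 and 0.25, and Dbt, the transacylase core, of 0.12 and 0.14 at day 25 and day 30, and neither passed.

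Past the shared steps, 1 of 11 members passed, at day 30. Acadsb (chr7:131410601-131446211, plus strand), the short/branched-chain acyl-CoA dehydrogenase of isoleucine breakdown, had FPKM of 41.8, 35.9 and 32.3 in the Con mice and 32.5, 31.8 and 29.00 in the CR mice at day 25, where CR7 was just above Con9 (log2 FC -0.22, 95% interval -0.50 to 0.049, adjusted p = 0.295). At day 30 its FPKM was 40.8, 50.4 and 47.6 in the Con mice and 28.97, 36.9 and 34.5 in the CR mice, with CR below Con throughout (log2 FC -0.46, 95% interval -0.73 to -0.19, adjusted p = 0.0276). The call was lost without CR10 (adjusted p 0.117). For leucine, log2 FC at day 25 and day 30 were 0.13 and 0.017 for Ivd, isovaleryl-CoA dehydrogenase, and 0.22 and 0.24 for Mccc1 and -0.033 and -0.052 for Mccc2, the chains of methylcrotonyl-CoA carboxylase. For valine, they were -0.038 and -0.10 for Acad8, -0.034 and 0.083 for Hibch, 0.18 and 0.11 for Hibadh and 0.013 and -0.0055 for Aldh6a1, which act in that order. The enzymes that carry propionyl-CoA into the citric acid cycle did not pass, at 0.011 and 0.071 for Pcca and 0.17 and 0.19 for Pccb, the carboxylase chains, and 0.0085 and 0.043 for Mut, methylmalonyl-CoA mutase. In all, of 16 branched-chain and propionyl-CoA members, 1 was lower at day 25 (6.25%, against 9.34% of all genes). At day 30, 1 was higher (6.25%, against 8.33%) and 3 were lower (18.8%, against 16.4%), so these shares lay near those of all genes.

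The largest fall of the 49 was that of Csad at day 30. Csad (chr15:102176998-102189043, minus strand), cysteine sulfinate decarboxylase, leads from cysteine to taurine. At day 25 its FPKM was 191, 167 and 109 in the Con mice and 106, 146 and 98.4 in the CR mice, and the groups overlapped (log2 FC -0.40, 95% interval -1.53 to 0.74, adjusted p = 0.692). At day 30 it was 211, 156 and 100.1 in the Con mice and 8.09, 61.02 and 20.9 in the CR mice, so that the CR mice lay below the Con mice, CR10 by far the most, and the mean in Con mice was 5.18 times that in CR mice. This fall passed (log2 FC -2.70, 95% interval -3.83 to -1.56, adjusted p = 0.00515) and did so in all 21 other settings with the same threshold, with a log2 FC between -3.41 and -2.02. Con mice also differed among themselves, from 109 to 191 FPKM at day 25 and from 100.1 to 211 FPKM at day 30. Cdo1, cysteine dioxygenase, which makes the substrate of Csad, was near the top of the members in level and had a log2 FC of 0.077 (95% interval -0.30 to 0.46) at day 25 and 0.19 (95% interval -0.19 to 0.57) at day 30.

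**Figure D4:**
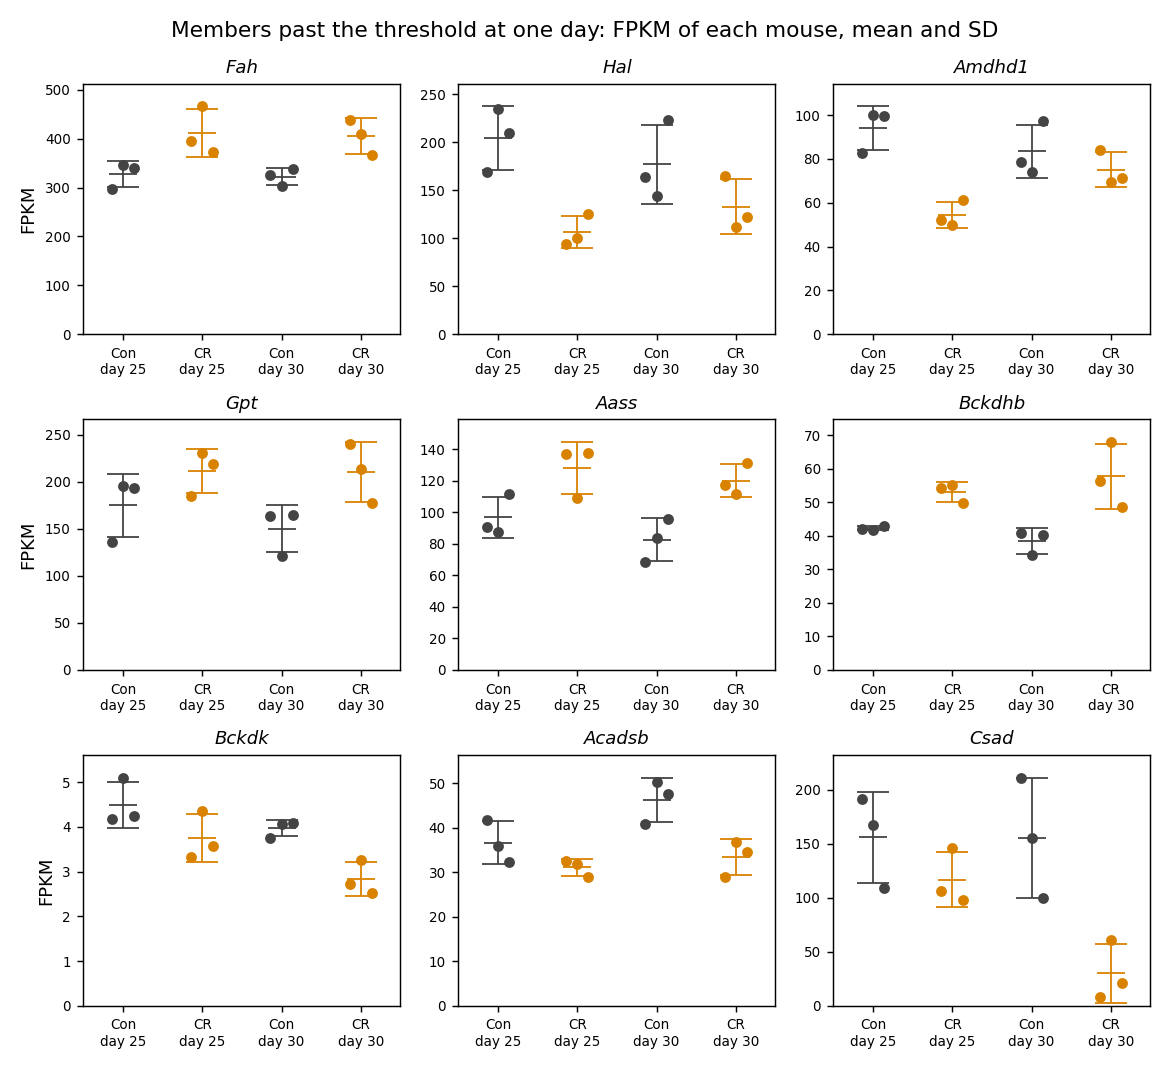
FPKM (vertical axes, each from 0) of the 9 members past the threshold at only 1 of the days, for the 4 groups (horizontal axes), with each mouse as a point and the mean and SD of 3 mice as lines. Hal and Amdhd1 are lower under CR at day 25, Csad, Acadsb and Bckdk are lower and Fah, Gpt, Aass and Bckdhb higher at day 30.

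Whether the effect of CR differed between the days was tested on the difference itself. Of the 18 members past the threshold at either day, 9 passed at both, all 9 in the same direction, while 2 passed at day 25 alone and 7 at day 30 alone. No member passed for the difference between the days, and among all genes 0% passed for a higher and 0.00944% for a lower log2 FC at day 30. Voom on reads recovered from the FPKM gave 0 members too. At an unadjusted p under 0.05 there were 2 members, against 3.46% of all genes tested. They were Amdhd1, whose log2 FC was 0.63 higher at day 30, and Csad, whose log2 FC was -2.30 at day 30 relative to day 25 (adjusted p = 1.00 for both, from limma). The signs were the same at both days for 43 of 49 members, and none had non-overlapping groups in opposite directions.

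**Figure D5:**
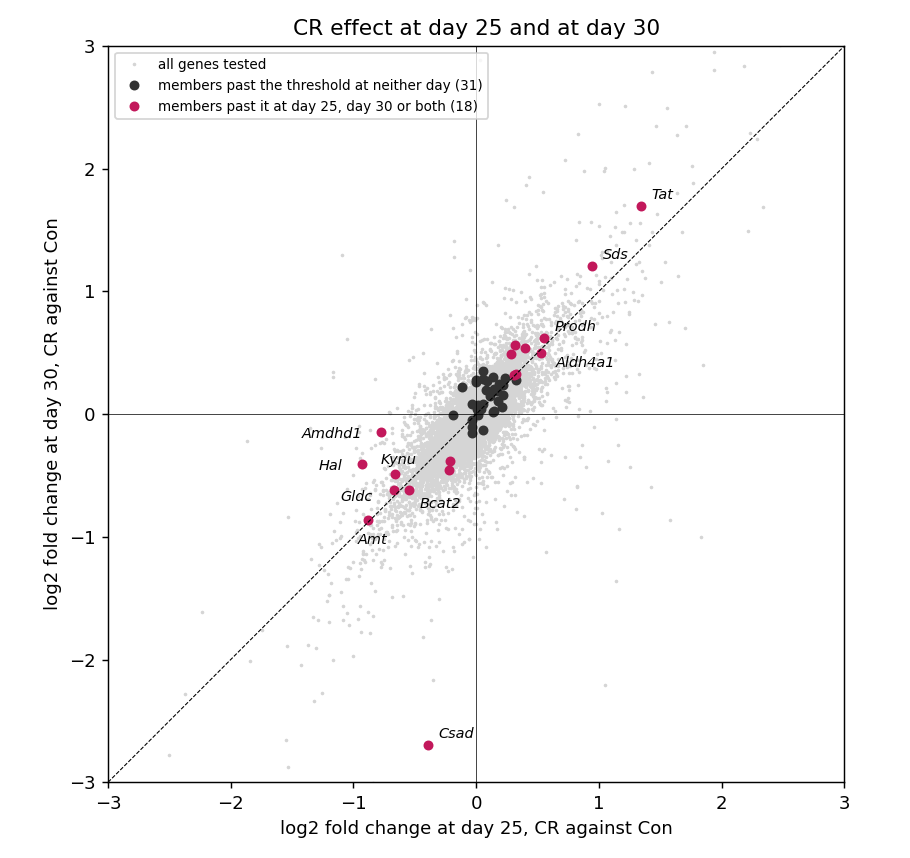
Log2 FC of CR against Con at day 25 (horizontal axis) and day 30 (vertical axis), from separate mice. Gray points are all genes tested (21 lie outside the axes), black the 31 members past the threshold at neither day and magenta the 18 past it at 1 or both, and the dashed line marks equal effects. Csad lies farthest below the line and Amdhd1 and Hal above it.

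Over both days, with 6 CR mice against 6 Con mice, 21 members passed, 12 higher and 9 lower, against 14.2% of all genes higher and 25.4% lower. With median-ratio scaling the split was 21 higher and 9 lower, with 2180 of all genes higher and 1945 lower. These 21 were the 18 above and Haao (log2 FC 0.27, 95% interval 0.071 to 0.46, adjusted p = 0.041), Mccc1 (log2 FC 0.23, 95% interval 0.082 to 0.38, adjusted p = 0.024) and Pccb (log2 FC 0.18, 95% interval 0.035 to 0.33, adjusted p = 0.0595), all of them higher. The remaining 28 members passed in no comparison. By compartment, 5 of 18 cytosolic members were higher and 4 lower, and 7 of 30 mitochondrial members were higher and 5 lower. Agxt, the sole peroxisomal member, did not pass.

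Promoter sequence is shown to set 2 members that rose beside 2 that fell. Of the 6 members with the smallest p over both days, Amt, Tat, Aldh4a1 and Bcat2 are in the RefSeq table of GRCm38.p6, and Kynu and Sds are not shown. The 250 bases before the start are given 5′ to 3′ on the plus strand, with CG dinucleotides in capitals.
Tat, chr8:109990186-109990435: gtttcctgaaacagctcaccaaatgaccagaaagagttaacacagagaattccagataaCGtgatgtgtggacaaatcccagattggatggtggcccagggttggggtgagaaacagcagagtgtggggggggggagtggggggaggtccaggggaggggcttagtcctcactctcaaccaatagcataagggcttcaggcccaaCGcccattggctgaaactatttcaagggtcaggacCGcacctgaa
Aldh4a1, chr4:139622644-139622893: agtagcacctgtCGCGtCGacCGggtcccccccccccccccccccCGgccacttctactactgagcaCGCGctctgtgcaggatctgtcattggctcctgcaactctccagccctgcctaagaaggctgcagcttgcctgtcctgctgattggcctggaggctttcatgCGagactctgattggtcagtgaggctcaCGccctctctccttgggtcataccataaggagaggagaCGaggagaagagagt
Amt, chr9:108296655-108296904: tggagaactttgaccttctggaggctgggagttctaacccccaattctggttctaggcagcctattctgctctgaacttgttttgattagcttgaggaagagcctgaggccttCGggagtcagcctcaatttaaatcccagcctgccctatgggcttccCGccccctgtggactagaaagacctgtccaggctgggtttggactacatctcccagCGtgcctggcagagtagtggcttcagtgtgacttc
Bcat2, chr7:45571029-45571278: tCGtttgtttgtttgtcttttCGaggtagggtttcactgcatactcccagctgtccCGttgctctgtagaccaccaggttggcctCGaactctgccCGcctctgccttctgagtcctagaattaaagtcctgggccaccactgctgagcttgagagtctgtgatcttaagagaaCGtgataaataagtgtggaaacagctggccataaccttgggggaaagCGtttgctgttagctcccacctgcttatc
Tat and Amt, which moved in opposite directions, each hold 3 CG dinucleotides, while Aldh4a1 holds 10 and Bcat2 holds 7, against a median of 6 over 32544 promoters. Their G and C content was 53.6% for both Tat and Amt, 60.8% for Aldh4a1 and 50.4% for Bcat2 (median of all promoters 52.4%). The start of Amt in RefSeq lies 17 bases from that in the expression table, and the other 3 coincide.

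In all, 5 short motifs were searched on both strands from 250 bases before to 50 bases after the start of the 41 members in that table. The cAMP response element TGACGTCA was in 0 of 41 (1.8% of all promoters), and the core of the amino acid response element, TGATGCAA, in 0 of 41 (0.867%). The FOXO and FOXA motif TGTTTAC was in 1, Hibadh (2.44% of members and 3.66% of all promoters). The glucocorticoid receptor motif AGAACA was in 7 (17.1% and 18.9%), among them Bckdhb and Bckdk, and the TATA box TATAAA in 6 (14.6% and 13.6%), among them Hal and Bckdk. None of the motifs was in the windows of Tat, Aldh4a1, Amt or Bcat2, which says only that these letters are not there.

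Other genes of amino acid breakdown that are not members served for comparison. Of 45 tested, 5 were higher (11.1%, against 5.6% of all genes) and 4 lower (8.89%, against 9.34%) at day 25. At day 30, 8 were higher (17.8%, against 8.33%) and 8 lower (17.8%, against 16.4%). The largest by log2 FC over both days was Got1, the cytosolic aspartate aminotransferase, at 1.203 at day 25 (adjusted p = 0.0202) and 1.70 at day 30 (adjusted p = 0.00216). Kyat3, an aminotransferase that takes kynurenine to kynurenic acid, rose by 0.76 and 0.73. Gcat, of threonine breakdown, was higher by 0.54 and 0.46. Lower at both days were Cbs, which commits homocysteine to cysteine (-0.83 and -0.62), Aadat, the aminoadipate aminotransferase of lysine and kynurenine breakdown (-0.46 and -0.57), and Ethe1 (-0.72 and -0.65) and Suox (-0.53 and -0.48), which oxidize the sulfur of cysteine. Each of these passed at both days. Of 6 urea cycle enzymes, none passed at day 25, and Ass1 (0.58, adjusted p = 0.0745) and Cps1 (0.48, adjusted p = 0.0705) were higher at day 30. Cps1 is, like Tat, also in the list of hepatocyte markers.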

How the data were processed

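Liver RNA from 12 mice was sequenced as paired-end reads on a single lane, and the authors mapped the reads to mm10 with BWA (submitters' processing notes also name CASAVA 1.8.2). The deposited values are FPKM of reads on exons, made by the authors with HOMER per the file headers, with 1 transcript per gene, no scaling between libraries and no stated use of strand. Coordinates are those of the table. The study's methods name DESeq2, but FPKM are not counts, so log2(FPKM + 1) of the 10593 genes with at least 1 FPKM in at least 3 libraries was fitted with limma 3.58.1 in R 4.3.3 (1 model of 4 groups, moderation with a trend, 2-sided, Benjamini-Hochberg over all genes, threshold 0.1). A pseudocount of 1 understates the fold change of low genes. An exact permutation test of 3 against 3 mice cannot reach a p below 0.1. The whole-number steps of low FPKM gave each library's depth (15748720 to 23345534 reads, 100% of low values whole), and voom on the recovered reads was an alternative.

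The labels name separate mice. Groups came from the labels, and which Con mouse of day 30 a column holds is known only by the column's number. Members and gene lists were chosen with earlier results of these data known. Members with an adjusted p under 0.1 at either day were given in full, other members by log2 FC, and list genes past the threshold at either day by size, at most 8 per list. An item under this rule is not reported here. The fit was tested on simulated data. Same-numbered mice deviated together at day 25, where the labels give the numbers (correlations 0.106 to 0.368, different animals), so a blocked value is given beside a result there where it changes the call. Of the 49 members, 41 matched the RefSeq promoter table by symbol. Alternatives covered pseudocount, filter, scaling (median ratio, TPM, quantile), moderation, libraries fitted, thresholds, the block and leaving out each mouse. Figures were drawn with matplotlib 3.10.9 and tables with pandas 2.3.3 in Python 3.11.15.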

Additional observations from a re-analysis of the deposited data

How the results depend on the processing

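No result changed direction while past the threshold. Of 11 member calls at day 25, 6 were kept in all 21 other settings (Tat, Kynu, Hal, Amdhd1, Aldh4a1 and Amt), and of 16 at day 30, 8 (Tat, Sds, Aldh4a1, Bcat2, Bckdhb, Bckdk, Amt and Csad). Those 21 settings kept the threshold of 0.1 and set no minimum fold change. A minimum of 2-fold left 1 member at day 25, 3 at day 30 and 3 over both days, because most changes are smaller. Of all 10593 genes, it left 89 higher and 68 lower at day 25, 98 and 136 at day 30, and 87 and 89 over both days. Leaving out 1 mouse at a time gave 7 to 12 members at day 25 (7 without Con7, CR7 or CR9), 12 to 17 at day 30, 20 to 24 over both days and 0 for the difference between days. Over all genes, these fits gave 319 to 609 higher and 524 to 995 lower at day 25. At day 30 they gave 517 to 915 higher and 980 to 1785 lower. Over both days they gave 1240 to 1613 and 2215 to 2679, and for the difference 0 to 1 and 0 to 5. Without Con7, CR7 or CR9 fewer of all genes passed at day 25 too. Without a filter, 8, 13 and 22 members passed at day 25, at day 30 and over both days, and with voom 12, 16 and 21. Of the 18362 genes without a filter, 487 were higher and 899 lower, 792 and 1629, and 1514 and 2931. With voom they were 591 and 996, 942 and 1885, and 1503 and 2740 of 10593. The calls lost without a filter were Sds, Prodh and Gldc at day 25 and Fah, Gpt and Gldc at day 30 (adjusted p 0.107 to 0.143). Median-ratio scaling gave 15, 22 and 30, TPM 11, 17 and 23, and quantile normalization 10, 17 and 22. Over all genes, TPM gave 573 higher and 1073 lower at day 25, 847 and 2013 at day 30 and 1410 and 2977 over both days. Quantile normalization gave 758 and 828, 1252 and 1217, and 1992 and 1942, and those of median-ratio scaling are given above. With the replicate block, 13 members passed at day 25, with Fah and Aass added and no call lost. Of all genes, 855 were then higher and 1299 lower. At day 30, the same-numbered correlations were 0.0456 to 0.181 (mean 0.114), against a mean of -0.0575 for different numbers. The means at day 25 were 0.26 and -0.131. For the Con mice of day 30 the number is only that of the column. The block gave 20 members there, with Hpd, Haao, Uroc1 and Dmgdh added, and 1130 of all genes higher and 2135 lower. Over both days the block gave 26 members, with 1749 of all genes higher and 3073 lower. For single members at a single day, 60 of 2058 alternative values lost a call, 38 gained one and 68 without a call changed sign, and the cause was not tested. With 3 mice per group, small changes may be missed.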
